A study of Mus musculus with 10 samples.

Results

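The Id genes and the core of the bone morphogenetic protein (BMP) pathway were followed through single-cell RNA sequencing of embryonic mouse back skin. The 9 genes were taken by symbol from tables that list 32285 genes at E15.5 and E17.5 and 27998 genes at E16.5. They were Id1, Id2, Id3 and Id4, the ligand genes Bmp2 and Bmp4, the decoy receptor gene Bambi, and the inhibitory Smad genes Smad6 and Smad7. Each was measured in basal keratinocytes, suprabasal keratinocytes and fibroblasts, which were selected from the kept cells by their own keratin and collagen counts. Differences in level between those 3 compartments are therefore described and were not tested. The effect of MOF deletion was compared between basal cells and fibroblasts.

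BMP ligands bind paired type I and type II receptors, which phosphorylate Smad1, Smad5 and Smad9. With Smad4 these enter the nucleus, where the Id genes are among the most direct targets. Id proteins have a helix-loop-helix but no DNA-binding region, and they hold E proteins such as Tcf3, Tcf4 and Tcf12 away from DNA. Bambi, Smad6 and Smad7 are themselves induced by the pathway and restrain it. In skin, BMP signals pass between the dermis and the epithelium, restrain the formation of hair placodes and accompany keratinocyte differentiation.

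The tissue was whole back skin, dissociated to single cells. The E15.5 groups were Control (replicates 2 and 3) and MOF cKO (replicates 5 and 6), and the E16.5 groups were Control (replicates 1 and 2) and MOF cKO (replicates 1 and 2). The E17.5 groups were Control and QPC cKO with 1 library each. MOF cKO embryos carry the genotype MOFfl/fl/K14Cre, and QPC cKO embryos carry QPCfl/fl/K14Cre. MOF (Kat8) is the acetyltransferase of histone H4 lysine 16, and QPC (Uqcrq) is a subunit of respiratory complex III. The Krt14 promoter drives Cre in the skin epithelium and not in the dermis, so the floxed alleles of fibroblasts are not the target of the deletion. The authors regarded the embryo of E15.5 MOF cKO replicate 6 as a mosaic of deleted and undeleted epithelial cells. Stage and 10x chemistry changed together, with version v2 at E16.5, v3 at E17.5 and v3.1 at E15.5, so that stages and chemistries cannot be told apart.

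A promoter in the RefSeq table matched 5 of the 9 genes: Id2, Id3, Id4, Bmp4 and Smad6. Those of Id2, Id3 and Id4 are shown because these genes share a family and a pathway while their levels ran differently in these libraries. The bases before the annotated start (250 for each gene) are from RefSeq on build GRCm38.p6, written 5′ to 3′ on the strand of the gene. Capitals mark any of 5 motifs found on either strand: GGCGCC, which resembles a GC-rich Smad1/5 element, GTCTAGAC, a Smad3/4 palindrome, CAGCTG, an E-box, TGACGTCA, a cyclic AMP response element, and the box motif CCAAT.
Id2 (chr12:25096093-25096342, minus strand): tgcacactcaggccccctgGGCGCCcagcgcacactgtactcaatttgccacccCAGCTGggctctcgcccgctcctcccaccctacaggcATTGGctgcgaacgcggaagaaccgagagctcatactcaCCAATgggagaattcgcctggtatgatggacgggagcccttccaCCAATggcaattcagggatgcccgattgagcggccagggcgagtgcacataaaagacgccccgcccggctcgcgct
Id3 (chr4:136143572-136143821, plus strand): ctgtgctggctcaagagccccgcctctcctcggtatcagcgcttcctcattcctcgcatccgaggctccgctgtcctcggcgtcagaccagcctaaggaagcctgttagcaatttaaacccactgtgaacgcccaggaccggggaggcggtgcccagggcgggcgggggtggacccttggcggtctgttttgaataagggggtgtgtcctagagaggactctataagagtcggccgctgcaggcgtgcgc
Id4 (chr13:48260866-48261115, plus strand): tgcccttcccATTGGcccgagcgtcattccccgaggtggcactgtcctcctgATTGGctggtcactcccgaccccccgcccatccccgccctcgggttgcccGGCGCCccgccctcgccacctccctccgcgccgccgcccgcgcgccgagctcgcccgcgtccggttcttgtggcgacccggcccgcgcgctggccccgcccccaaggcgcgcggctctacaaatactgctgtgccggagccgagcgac
The Id2 promoter held GGCGCC at position -231 from the start, CAGCTG at -196, and CCAAT at -159, -120 and -76. The Id4 promoter held GGCGCC at -148 and CCAAT at -240 and -198. None of the 5 motifs was found in this window of Id3. The Smad6 window, not shown, held GTCTAGAC at -4 and CCAAT at 24, and no motif was found in that of Bmp4. Among 32851 promoters of the same 300-base span, 11.9% held GGCGCC, 0.213% GTCTAGAC, 16.3% CAGCTG, 1.79% TGACGTCA and 37.4% CCAAT. The annotated positions of 3 further members on GRCm38 were Id1 at chr2:152736251-152737410 on the plus strand, Bmp2 at chr2:133552159-133562885 on the plus strand and Bmp4 at chr14:46383520-46390669 on the minus strand.

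The 10 libraries held 13609345 to 203392303 UMIs (unique molecular identifiers, 1 for each captured RNA molecule), and 55482 cells were kept. Of these 12019 were basal, 1290 suprabasal and 32692 fibroblasts. MOF cKO skin at E16.5 gave only 21 and 22 basal cells (360839 and 443389 UMIs) and 9 and 13 suprabasal cells, against 239 and 464 basal and 31 and 66 suprabasal control cells. Levels are given as counts per 1000000 UMIs of the compartment in that library, abbreviated CPM. The targeted gene Kat8 stood at 14.9 to 16.4 CPM in E16.5 control basal cells against 8.3 and 4.5 CPM in MOF cKO, where it rested on 3 and 2 UMIs, and at 13.0 and 13.7 against 13.4 and 10.3 CPM at E15.5. In fibroblasts, where the deletion is not directed, Kat8 read 9.60 and 8.23 CPM in E16.5 control and 2.81 and 5.39 CPM in MOF cKO, and 9.18 and 9.62 against 6.83 and 5.98 CPM at E15.5. Uqcrq stood at 103 CPM in E17.5 control basal cells and 45.7 CPM in QPC cKO. These 3′ tags need not lie in the deleted part of either gene. The basal gate also took cells with collagen: 45.2% of basal cells of the E17.5 control had at least 30 Col1a1 and Col3a1 UMIs, against 9.19% in QPC cKO. At E16.5 the shares were 31.4% and 4.96% in control and 0 of 21 and 0 of 22 cells in MOF cKO, which allows up to 14.3% and 13.6%. The E15.5 controls held 6.44% and 6.77%, below the 12.9% and 8.997% of MOF cKO. The summed level of the 8 fibroblast markers in basal cells was 31099 CPM in the E17.5 control and 5444 CPM in QPC cKO, so the E17.5 basal values below are given with and without collagen-bearing cells. Wherever such cells were removed the limit was at least 10 of these UMIs, while the shares of collagen-bearing cells use 30. Any pair of libraries shared at most 36 kept barcodes, 0.354% of the smaller library.

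In control skin the members differed in where they were read. Bmp2, a ligand of the epidermis, ranged from 44.4 to 81.0 CPM in basal cells over the 5 control libraries, from 8.04 to 19.5 CPM in suprabasal cells and from 3.72 to 7.91 CPM in fibroblasts, and these 3 ranges did not overlap. Bmp4, a ligand made in the dermis, ran the other way with 26.3 to 75.1 CPM in fibroblasts, 6.15 to 32.0 CPM in basal cells and 0 to 22.1 CPM in suprabasal cells. The basal maximum of Bmp4 was the E17.5 control, the library with the most collagen-bearing cells, where removal of cells with at least 10 collagen UMIs left 5.96 CPM. Id2 read 119 to 293 CPM in fibroblasts, against 13.3 to 35.2 CPM in suprabasal cells without overlap and 19.5 to 155 CPM in basal cells, while the cells outside these 3 gates held 156 to 273 CPM. Id1 did not order the compartments, since 28.2 to 82.4 CPM in basal, 36.3 to 205 CPM in suprabasal and 70.2 to 137 CPM in fibroblast sums overlapped. Id3 overlapped as well, with medians of 264 CPM in basal cells, 187 CPM in fibroblasts and 124 CPM in suprabasal cells. Bambi ranged from 8.26 to 20.8 CPM in basal, 5.02 to 39.3 CPM in suprabasal and 12.3 to 28.7 CPM in fibroblast sums, which overlapped. Smad7 reached 49.4 CPM in fibroblasts and 38.9 CPM in basal cells, both in the E17.5 control. Smad6 reached at most 8.21 CPM in any control sum of these compartments. Id4 spread widely among libraries, from 1.39 to 64.7 CPM in control fibroblasts, and E16.5 control replicate 2 was its lowest control library in basal cells and fibroblasts.

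**Figure D1:**
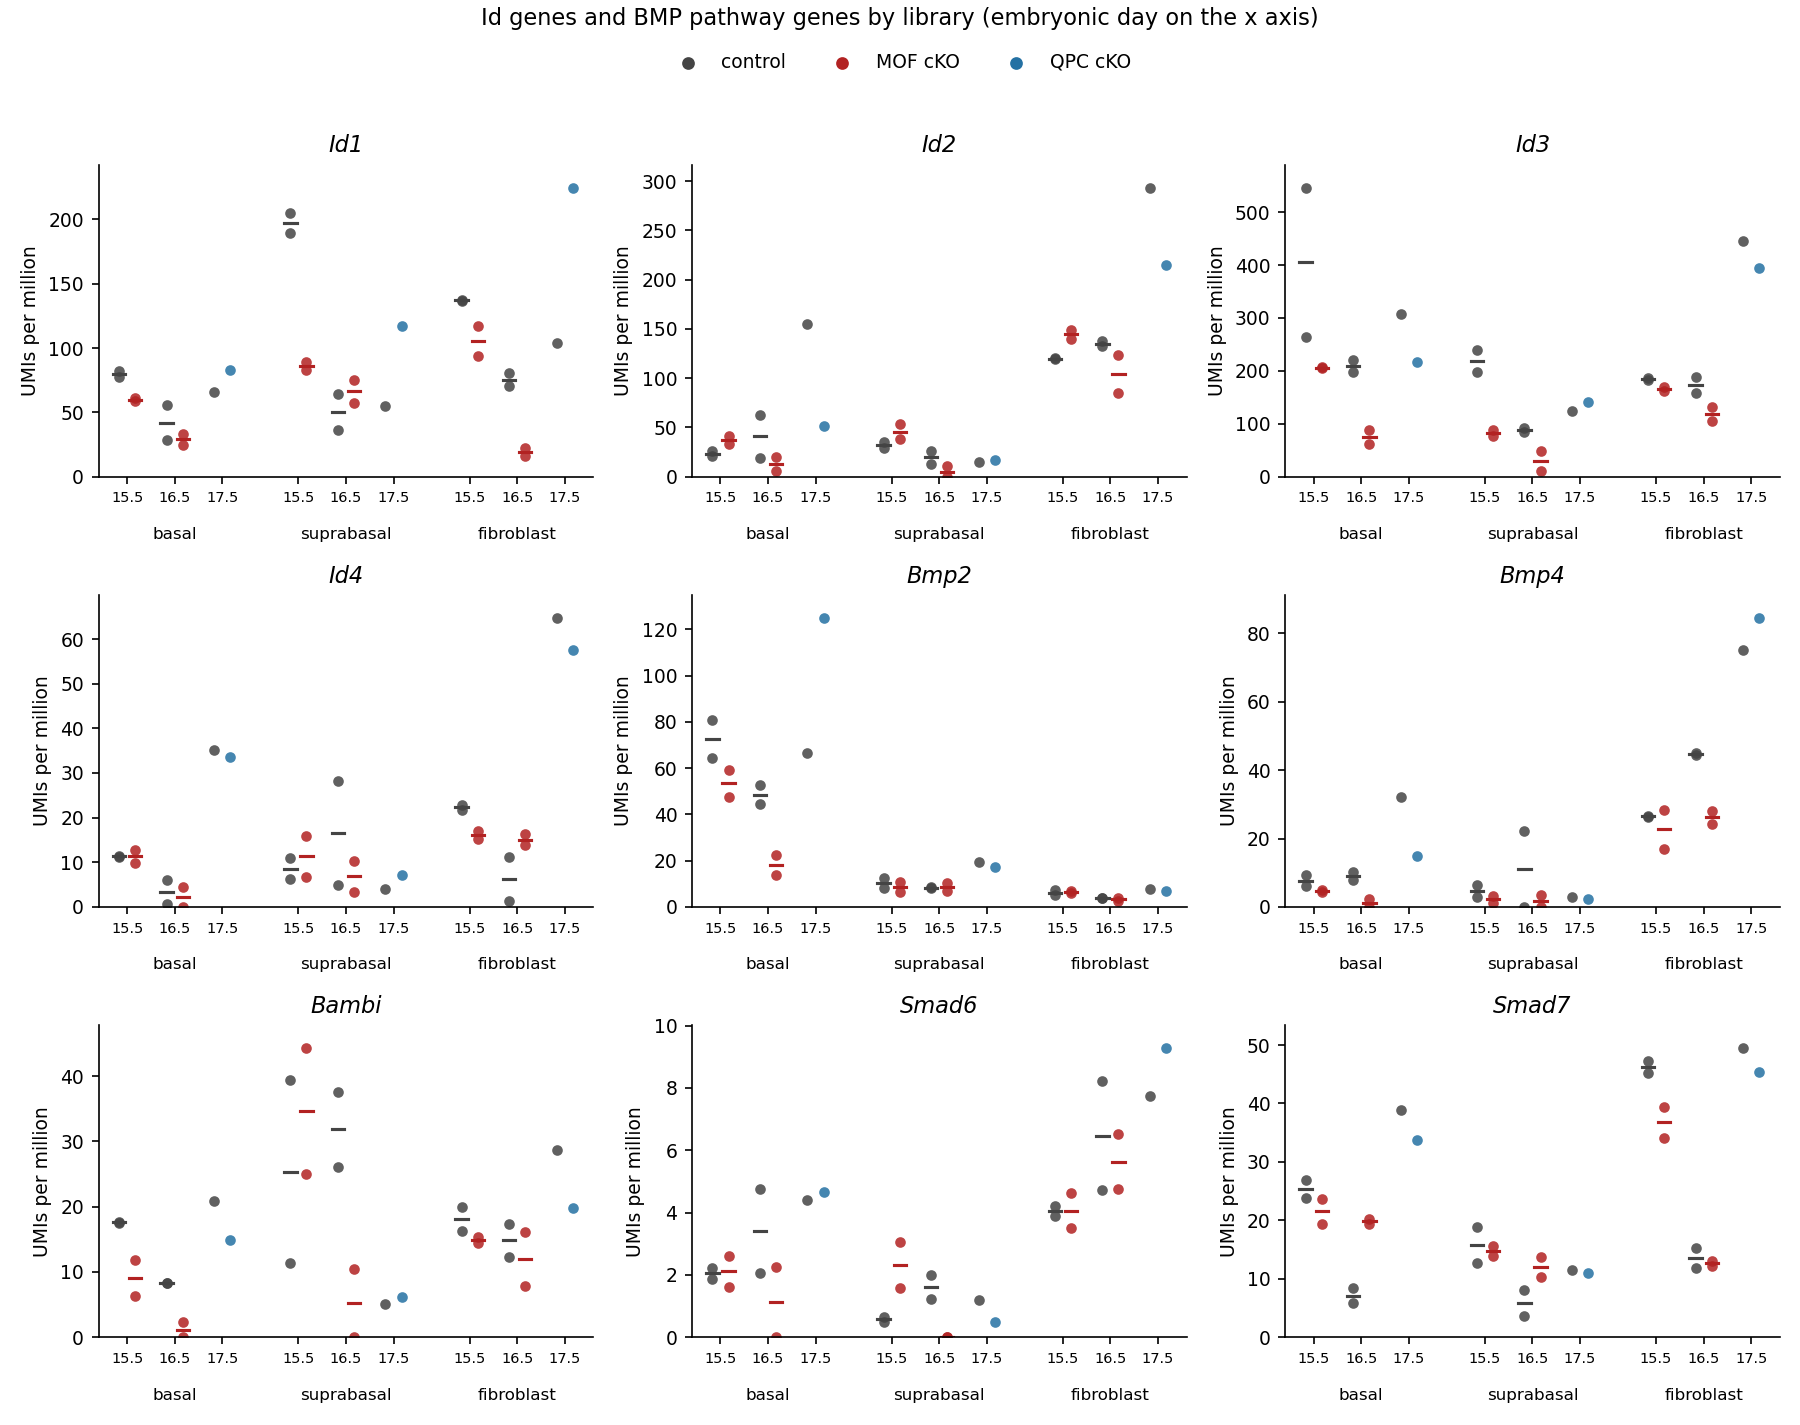
Level of each gene in CPM (y axis, from 0, scaled per gene) by compartment and embryonic day (x axis). Each point is 1 library and short bars are means of 2 libraries, with control in grey, MOF cKO in red and QPC cKO in blue. Id1 in E16.5 fibroblasts lies at 70.2 and 80.7 CPM in control and at 16.4 and 22.0 CPM in MOF cKO.

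Of the 9 genes, Id1 in E16.5 fibroblasts was the member that passed the test between MOF cKO and control. Id1 stood at 80.7 and 70.2 CPM in the controls and at 16.4 and 22.0 CPM in the MOF cKO libraries. Both MOF cKO libraries were far below both controls, with means of 75.5 ± 7.39 and 19.2 ± 3.92 CPM (SD, n = 2 libraries each). Id1 fell by 1.84 on the log2 scale (SE 0.15, adjusted p = 0.0243, edgeR's quasi-likelihood test with Benjamini-Hochberg adjustment over 12569 genes), a 3.58-fold lower level. It was the 1 member called of 9 tested, where 583 genes, 4.64% of all, were called (305 higher and 278 lower). Over 11 alternative settings the change ran from -2.01 to -1.71 and the adjusted p from 3.3e-11 to 0.0836. The call was lost only without E16.5 control replicate 2, where the change was -1.84 with adjusted p = 0.0836.

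Other cell classes differed between the same fibroblast sums. The summed level of 8 dermal condensate markers (Sox2, Sox18, Foxd1, Cxcr4, Bmp3, Dkk1, Trps1 and Alx4) was 160 to 275 CPM in control and 66.0 to 74.5 CPM in MOF cKO, with each marker above 0 in every library. Within this list Dkk1, a secreted Wnt inhibitor, fell by 3.87 (SE 0.25, adjusted p = 0.0191) and Trps1 by 1.41 (SE 0.26, adjusted p = 0.0478). The 8 basal markers summed to 378 to 588 against 188 to 233 CPM, the 8 suprabasal markers to 330 to 423 against 107 to 116 CPM, and the 7 pericyte markers to 70.2 to 84.4 against 124 to 132 CPM. The 7 macrophage markers summed to 23.1 to 30.2 against 72.7 to 235 CPM and the 6 endothelial markers to 23.4 to 23.6 against 35.7 to 44.4 CPM. Single genes of the endothelial list (Pecam1, 1.92, adjusted p = 0.0435), the muscle list (Des, 2.06, adjusted p = 0.0243) and the hair follicle list (Sox9, 1.82, adjusted p = 0.0497) rose. No other gene of these lists was called, and the summed hair follicle markers overlapped at 36.0 to 62.6 against 31.6 to 57.3 CPM. Shh, Lhx2, Sox9 and Edar together had at least 2 UMIs in 1.37% and 0.628% of control and 6.95% and 3.23% of MOF cKO fibroblasts. The part of these other classes in the Id1 result, and in the changes of other genes in the same sums below, was not tested. In such sums a lower share of cells of a type and less RNA per cell cannot be told apart.

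The other members in E16.5 fibroblasts did not pass the test. Bmp4 read 44.4 and 45.1 CPM in control against 24.3 and 28.1 CPM in MOF cKO without overlap, a fitted change of -0.65 (SE 0.14, adjusted p = 0.0612), which was past the threshold in 2 of 11 alternative settings. Over these 11 settings the change of Bmp4 ran from -0.78 to -0.23. Id3 read 189 and 159 CPM in control against 132 and 105 CPM, and Id2 read 133 and 138 CPM against 84.5 and 124 CPM. The groups of Id2 and Id3 did not overlap either. With Id1, Bmp4 and Id4 that makes 5 of 9 members, where 53.90% of the genes tested did not overlap. In the keratinocyte sums below, 38.5% to 65.7% of the genes tested did not overlap, so that a lack of overlap there is a description only. Id4 was at 11.1 and 1.39 CPM in control and 16.4 and 13.8 CPM in MOF cKO, so that its difference rested on control replicate 2. Without control replicate 1, which leaves that low library as the only control, Id4 was called higher at 3.43 (adjusted p = 0.0328). Bambi at 7.84 to 17.4 CPM, Bmp2 at 2.66 to 4.03 CPM, Smad6 at 4.71 to 8.21 CPM and Smad7 at 11.9 to 15.3 CPM overlapped between the groups.

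In the wider pathway in E16.5 fibroblasts the calls lay outside the receptors and the Smads. Of 78 further genes in fixed lists of ligands, receptors, Smads, antagonists, targets, E proteins, the TGF-beta branch and immediate early genes, 66 were tested, 6 rose and 3 fell, 13.64% against 4.64% of all genes. The share includes the 2 calls of the TGF-beta branch and the 3 of the immediate early genes, lists that lie beside the BMP pathway. All 78 are called further pathway genes here and below. The lists were chosen with earlier results of these data known, so this share is a description and no test of the pathway. None of 10 receptors and co-receptors tested passed (median change 0.13, against 0.01 over all genes), and none of 8 Smads and Smad turnover genes did (median 0.23). Of 12 extracellular antagonists tested 1 rose and 1 fell. Grem1, a secreted BMP antagonist, rose from 3.89 and 3.39 to a mean of 14.2 ± 4.55 CPM (SD, n = 2; log2 change 2.09, SE 0.32, adjusted p = 0.0359), and Nog, which encodes noggin, fell from 16.3 and 13.4 to 6.22 and 5.63 CPM (-1.20, SE 0.19, adjusted p = 0.0382). Of 9 other BMP targets tested 2 fell, with a list median of -0.39. These were Lef1, a Wnt-responsive transcription factor, from 67.6 and 45.0 to 19.5 and 15.7 CPM (-1.54, SE 0.21, adjusted p = 0.0335) and Hey1, also a target of Notch, from 8.48 and 7.04 to 2.22 and 2.25 CPM (-1.66, SE 0.25, adjusted p = 0.0359). Hey1 was also the 1 gene that fell among 6 E proteins and helix-loop-helix partners, in which Tcf3, Tcf4 and Tcf12 were not called. In the TGF-beta branch 2 of 11 rose with a list median of 0.50, the ligand Tgfb2 (1.39, SE 0.16, adjusted p = 0.0285) and the matrix gene Tgfbi (1.86, SE 0.26, adjusted p = 0.0335). Of 9 immediate early genes 3 rose (Junb, Egr1 and Dusp1), with a list median of 0.79. Across the 11 alternatives these 9 genes had the same direction. Each lost its call without either control library, all but Tgfb2 and Tgfbi also did without MOF cKO replicate 1, all but Grem1 and Tgfbi did without MOF cKO replicate 2, and the 3 immediate early genes also did when libraries were scaled by size alone or blocked by number.

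**Figure D2:**
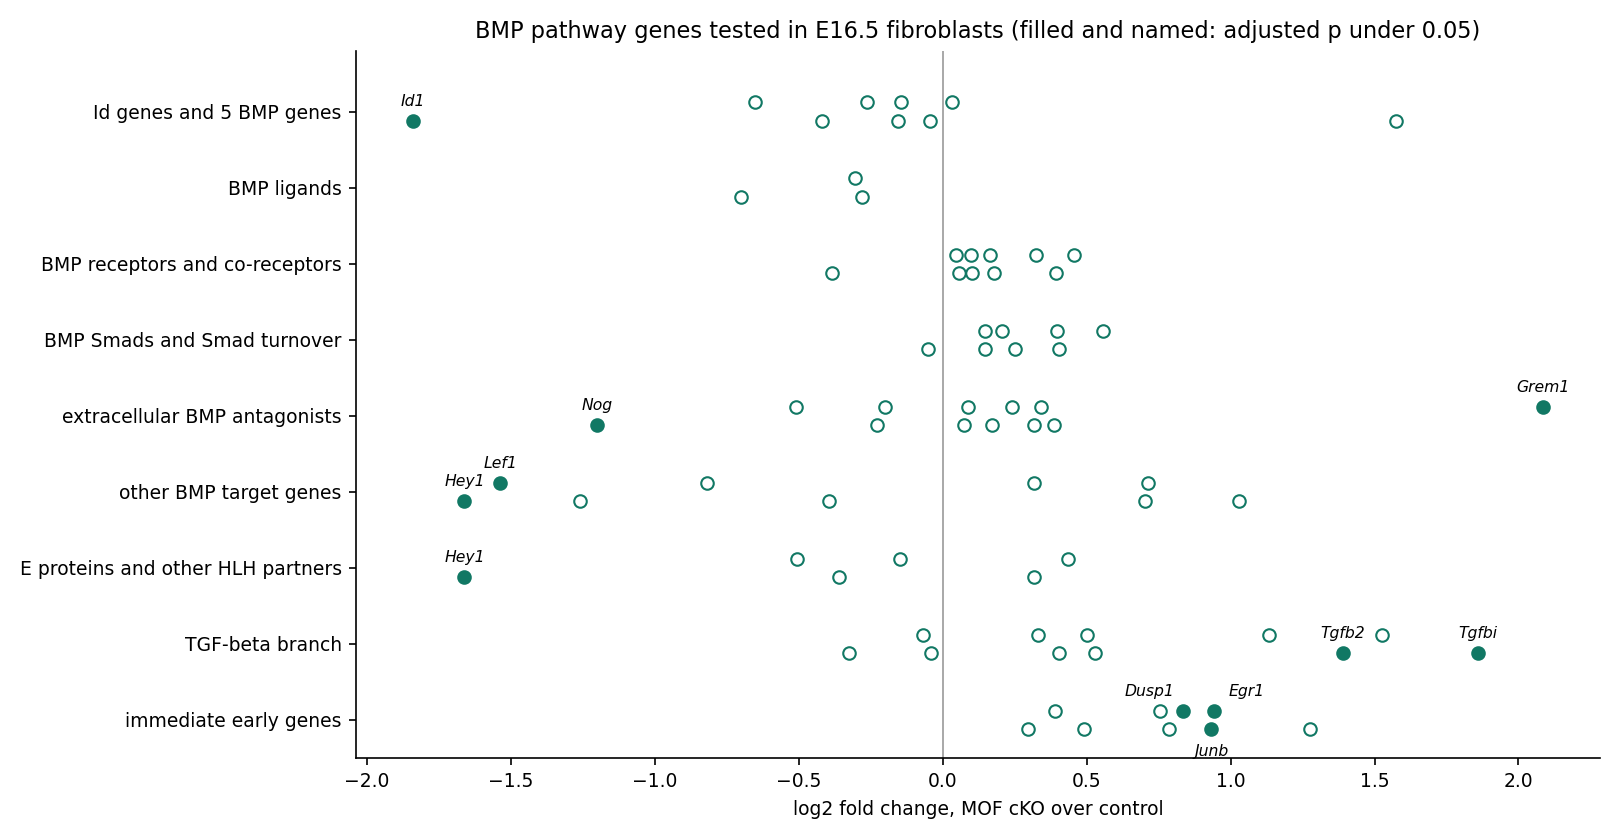
Fitted log2 fold change in E16.5 fibroblasts, MOF cKO over control (x axis), for each tested gene of the pathway lists (rows). Each circle is 1 gene from a fit of 2 against 2 libraries, filled and named at adjusted p under 0.05: Id1 is at -1.84, Grem1 at 2.09 and Nog at -1.20, while no receptor or Smad is filled.

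At E15.5 no member passed the test in fibroblasts, where 0% of 16268 genes did by edgeR (0 genes, against 2538 below 0.05 before adjustment and 494 called by DESeq2). Id1 was at 137 CPM in both controls and at 93.8 and 117 CPM in MOF cKO, a fitted change of -0.40 (SE 0.09, adjusted p = 0.198). Id2 lay the other way, at 120.2 and 119 CPM in control and 140.1 and 149 CPM in MOF cKO (0.25, SE 0.05, adjusted p = 0.184). Id4 was at 21.8 and 22.7 CPM in control and 15.2 and 16.9 CPM in MOF cKO (-0.50, SE 0.07, adjusted p = 0.181), and Smad7 at 45.2 and 47.4 against 34.2 and 39.4 CPM (-0.36, SE 0.07, adjusted p = 0.181). Id3 differed least of the Id genes, at 182 and 187 against 169 and 162 CPM (-0.18, SE 0.06, adjusted p = 0.282). Bambi read 19.98 and 16.2 CPM in control and 15.4 and 14.4 CPM in MOF cKO (-0.30, SE 0.12, adjusted p = 0.321). The groups of these 6 of 9 genes did not overlap, as those of 46.68% of the genes tested did not. DESeq2 called Id1, Id2, Id4 and Smad7 along with 3.04% of genes. Without the low-count filter edgeR called Id1 (adjusted p = 0.0477) and Id4 (adjusted p = 0.0241) along with 0.954% of genes. Without MOF cKO replicate 6 it called Id1 (-0.52, adjusted p = 0.0352) along with 0.692%. Bmp4 was at 26.3 and 26.6 CPM in control and at 16.9 and 28.5 CPM in MOF cKO, on both sides of control, and Bmp2 at 5.16 to 7.27 and Smad6 at 3.50 to 4.62 CPM overlapped as well. The dermal condensate markers summed to 311 to 357 CPM in control and to 159 and 275 CPM in MOF cKO replicates 5 and 6. None of the further pathway genes (66 tested in basal, 55 in suprabasal and 72 in fibroblast sums) was called by edgeR at E15.5 with all libraries and the low-count filter. DESeq2 called 3, 1 and 3 of them, all lower, beside 0.453% of all genes in suprabasal and 3.04% in fibroblast sums. How many edgeR called depended on which MOF cKO library was left out, as it did over all genes in basal and suprabasal sums.

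The difference between the stages was tested directly. The change of Id1 in fibroblasts was 1.46 log2 units further down at E16.5 than at E15.5 (SE 0.18, adjusted p = 0.0327), the 1 member called in a fit that called 188 of 14895 genes, 1.26%. It held in the 6 alternative settings that kept all 8 libraries and in 2 of 8 fits without 1 library. It was lost without E15.5 control replicate 2 or 3, E15.5 MOF cKO replicate 5 or 6, E16.5 control replicate 2 or E16.5 MOF cKO replicate 1, with adjusted p from 0.0509 to 0.212 and changes from -1.65 to -1.31 over all 8 such fits. Id4 (2.11, SE 0.80, adjusted p = 0.222), Id2 (-0.53, SE 0.22, adjusted p = 0.245) and Smad7 (0.37, SE 0.14, adjusted p = 0.23) did not pass. The Id4 value was 3.91 without E16.5 control replicate 1, with adjusted p = 0.00566, and 1.11 without E16.5 control replicate 2. Among 71 further pathway genes tested for this difference 2 rose, the immediate early genes Dusp1 (0.96, SE 0.16, adjusted p = 0.0456) and Atf3 (1.76, SE 0.31, adjusted p = 0.0499). Each was past the threshold in 5 of 14 alternatives and lost its call with size scaling, with the 5% mitochondrial limit and without any 1 library other than E16.5 control replicate 1, with adjusted p up to 0.236. Their whole list summed to 4778 to 5854 CPM in E16.5 control fibroblasts against 8253 to 8258 CPM in MOF cKO, and to 9931 to 10785 against 10226 to 10887 CPM at E15.5. In the fit of a single MOF effect over both stages no fibroblast gene was called (0% of 14435, with 3271 below 0.05 before adjustment and 1543 called by DESeq2). There Id1 had a change of -1.07 (SE 0.27, adjusted p = 0.113), Bmp4 of -0.44 (SE 0.16, adjusted p = 0.158) and Id3 of -0.30 (SE 0.11, adjusted p = 0.158).

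In basal keratinocytes, the cells in which the deletion is directed, no member passed at either stage. Id3 was at 264 and 546 CPM in the E15.5 controls and at 205 and 207 CPM in MOF cKO. At E16.5 Id3 was at 219.6 and 199 CPM in control and at 61.0 and 88.0 CPM in MOF cKO, from 22 and 39 UMIs. Both MOF cKO libraries were below both controls at each stage. At E16.5, 4867 of the 9454 genes tested in basal sums were lower without overlap and 999 were higher. The fitted E16.5 change of Id3 was -0.98 (SE 0.31, adjusted p = 0.182). Its change over both stages was -0.92 (SE 0.25, adjusted p = 0.223), which DESeq2 called (adjusted p = 0.0459). Id1 lay below control at E15.5, at 58.8 and 60.8 against 77.4 and 82.4 CPM. Its groups overlapped at E16.5, at 24.8 and 33.3 against 28.2 and 55.7 CPM, with a fitted change of 0.02 (SE 0.43, adjusted p = 0.99). Id2 was higher in MOF cKO at E15.5, at 41.4 and 33.3 against 21.0 and 26.1 CPM (0.84, SE 0.26, adjusted p = 0.508). At E16.5 Id2 rested on 2 and 9 UMIs in MOF cKO (5.54 and 20.3 CPM), against 62.6 CPM in control replicate 1, whose basal gate held the most collagen at that stage, and 19.5 CPM in replicate 2. Id4 was at 9.82 to 12.8 CPM at E15.5 with overlapping groups. In these basal sums the immediate early genes stood at 12431 to 13089 CPM in E15.5 control and 5688 to 8713 CPM in MOF cKO, and the hair follicle markers at 1149 to 1287 CPM in E16.5 control and 2481 to 3852 CPM in MOF cKO. The hair follicle list includes Krt17, which the paper reads as stress response in MOF cKO. Shh, Lhx2, Sox9 and Edar together had at least 2 UMIs in 15.9% and 19.2% of E16.5 control basal cells. In MOF cKO the shares were 23.8% and 31.8%. The suprabasal marker Ivl, which encodes a cornified envelope protein, was among the genes called in E16.5 basal cells, at 1.19 and 1.77 CPM in control and 88.7 and 69.9 CPM in MOF cKO (6.12, SE 0.46, adjusted p = 0.0466), while the 8 suprabasal markers together overlapped at 928 to 2083 and 1380 to 4049 CPM. Ivl passed the filter on low counts mainly through the MOF cKO group, so that its call is a description. The part of these genes in the basal differences was not tested.

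None of the restraining members passed the test in basal cells either, although Smad7 and Bambi did in some alternatives. Bambi was at 17.6 ± 0.15 CPM in E15.5 control (SD, n = 2) and at 6.27 and 11.9 CPM in MOF cKO (-0.84, SE 0.25, adjusted p = 0.508), and over both stages its change was -1.01 (SE 0.34, adjusted p = 0.278). At E16.5 it had 0 and 1 UMIs in MOF cKO, against 28 and 56 UMIs in the larger control sums. Smad7 read 8.34 and 5.90 CPM in E16.5 control and 19.4 and 20.3 CPM in MOF cKO, from 7 and 9 UMIs, a change of 2.01 (SE 0.47, adjusted p = 0.133). At E15.5 Smad7 read 26.9 and 23.8 CPM in control and 23.7 and 19.4 CPM in MOF cKO, with both MOF cKO libraries just below the controls, and the difference between stages was 2.01 (SE 0.48, adjusted p = 0.279). Smad7 at E16.5 was called with gate limits per 10000 UMIs (1.90, adjusted p = 0.043), as were Id3 (-1.20, adjusted p = 0.0322) and Bmp2 (-1.42, adjusted p = 0.0426), where 9.01% of genes were called. Smad7 was also called without the low-count filter (1.92, adjusted p = 0.0457), and its stage difference was called by DESeq2 (2.10, adjusted p = 0.032) and without the filter (2.02, adjusted p = 0.0424). Over the 9 alternatives that tested it, the E16.5 change of Smad7 ran from 1.42 to 3.01, and 2 of them called it. Smad6 stayed between 1.61 and 2.61 CPM at E15.5. Bmp2 was lower in MOF cKO without overlap at both stages, at 47.7 and 59.3 against 81.0 and 64.5 CPM and then at 13.9 and 22.6 against 44.4 and 52.6 CPM. At E16.5 so were 4867 of 9454 genes, and the fitted change of Bmp2 was -0.91 (SE 0.43, adjusted p = 0.285). Its change over both stages was -0.52 (SE 0.22, adjusted p = 0.324). Bmp4 read 9.27 and 6.15 CPM in E15.5 control and 4.28 and 4.86 CPM in MOF cKO, and had 0 and 1 UMIs in the E16.5 MOF cKO sums.

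These member counts stand beside small counts over all genes. For basal cells 0 of 14364 genes passed at E15.5 (0%, with 1309 below 0.05 before adjustment and 113 called by DESeq2), 23 of 9454 at E16.5 (0.243%), 0 of 12582 over both stages (0%, with 1869 and 322) and 2 of 13189 for the difference between stages (0.0152%). Members tested were 9, 7, 9 and 9 in these fits. The E15.5 basal result depended on which MOF cKO library was left out. Without replicate 5 Bambi (-0.57, adjusted p = 0.0225) and Id1 (-0.45, adjusted p = 0.0294) were called along with 4.97% of genes. Without replicate 6, the mosaic embryo, Id2 (1.11, adjusted p = 0.00116), Id4 (0.47, adjusted p = 0.00969) and Bambi (-1.19, adjusted p = 0.000422) were called along with 49.42% of genes. Whether the MOF effect differed between basal cells and fibroblasts was tested with the library as a block, and no member of 9 and no gene of 14734 passed (0%, with 2229 below 0.05 before adjustment and 375 called by DESeq2). None of the 53 further pathway genes tested in E16.5 basal cells passed, nor did any of the 72 tested for the difference between compartments. DESeq2 called 3 and 7 of them, beside 295 of 9454 and 375 of 14734 genes.

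In suprabasal keratinocytes Id1 and Id3 read lower in both MOF cKO libraries at E15.5. The call depended on the tool, the filter and the libraries kept, and each gene was past the threshold in 4 of 10 alternatives. Over these 10 the change ran from -1.32 to -0.88 for Id1 and from -1.62 to -1.14 for Id3. Id1 read 189 and 205 CPM in control and 89.2 and 82.8 CPM in MOF cKO. Id3 read 197 and 239 CPM in control and 76.3 and 88.7 CPM in MOF cKO. For both genes both MOF cKO libraries were well below both controls. The immediate early genes summed to 10131 and 10152 CPM in the same control sums and to 5213 and 8006 CPM in MOF cKO, and their part in these differences was not tested. The fitted changes were -1.08 (SE 0.20, adjusted p = 0.551) for Id1 and -1.31 (SE 0.18, adjusted p = 0.372) for Id3, in a fit that called 0 of 10819 genes (0%, with 836 below 0.05 before adjustment and 49 called by DESeq2). DESeq2 called both, with adjusted p of 0.0419 for Id1 and 0.00133 for Id3, where 0.453% of genes were called. Without the low-count filter edgeR called both as well, with adjusted p of 9.22e-05 for Id1 and 5.91e-07 for Id3, where 2.91% of genes were called. So did edgeR without MOF cKO replicate 5, with 0.337% of genes called, and without replicate 6, with 15.49% called. Id4 was also called in the latter fit (1.24, adjusted p = 0.0422). Id2 read 29.4 and 35.2 CPM in control and 38.4 and 53.0 CPM in MOF cKO (0.57, SE 0.19, adjusted p = 0.631). Bambi at 11.4 to 44.3, Smad7 at 12.7 to 18.8 and Bmp2 at 6.35 to 12.6 CPM overlapped between groups.

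The E16.5 suprabasal sums were small, and 3 members could be tested there. The mean mitochondrial share of these cells was 3.18% and 2.01% in control and 0.467% and 0.999% in MOF cKO. Collagen-bearing cells made up 6.45% and 4.55% of control and 0% and 23.1% of MOF cKO cells. Id1 read 64.3 and 36.3 CPM in control and 57.1 and 75.4 CPM in MOF cKO, from 11 and 22 UMIs, with overlap. Its fitted change was 0.92 (SE 0.44, adjusted p = 0.234). Id3 read 84.4 and 92.0 CPM in control and 10.4 and 48.0 CPM in MOF cKO, from 2 and 14 UMIs, without overlap. Bambi had 13 and 31 UMIs in control and 2 and 0 UMIs in MOF cKO (adjusted p = 0.174). No member was called, where 172 of 4266 genes were (4.03%). Among 26 further pathway genes tested 2 rose and 1 fell (11.54%). The 2 that rose came from the TGF-beta branch and the immediate early list. The ligand gene Tgfb1 had 1 and 3 UMIs in control and 16 and 16 UMIs in MOF cKO (adjusted p = 0.0158), and was the 1 gene of the TGF-beta branch that could be tested. The heat shock gene Hspa1b had 3 and 4 UMIs against 6 and 10 UMIs (adjusted p = 0.0314), and Fst, which encodes the antagonist follistatin, had 33 and 60 UMIs against 1 and 1 UMI (adjusted p = 0.0369). Each passed the filter on low counts mainly through the group in which it was high, so that their number is given as a description. Tgfb1 lost its call without MOF cKO replicate 1, Fst without control replicate 2 or either MOF cKO library, and Hspa1b without either control library or MOF cKO replicate 1. Fst and Hspa1b also lost it with DESeq2 and with the replicate block, and Hspa1b with gate limits per 10000 UMIs. The hair follicle markers in the same sums were 1171 to 1554 CPM in control and 4844 to 7325 CPM in MOF cKO. Their list includes Krt17, which edgeR called higher (2.77, adjusted p = 0.0404). The paper reads Krt17 as hair germ in control and as stress response in MOF cKO. Shh, Lhx2, Sox9 and Edar together had at least 2 UMIs in 3.23% and 3.03% of control cells and in 0% and 15.4% of MOF cKO cells. The 8 suprabasal markers summed to 73414 to 76793 CPM in control and 24499 to 25037 CPM in MOF cKO, and the 8 basal markers to 14031 to 14263 and 25489 to 33073 CPM. Lor, which encodes loricrin of the granular layer, stood at 39484 and 24479 CPM in control and 145 and 51.4 CPM in MOF cKO, a fall of 7.81 on the log2 scale (adjusted p = 0.0112). The part of these markers and cells in the suprabasal changes was not tested.

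Over both stages Id3 had a fitted suprabasal change of -1.22 (SE 0.29, adjusted p = 0.123), with 12 of 9405 genes called (0.128%) and 7 members tested. Its direction was the same in all 14 alternative settings, and it was called in 2 of them. The change of Id1 differed between stages by 2.0 (SE 0.46, adjusted p = 0.228) and that of Id2 by -2.28 (SE 0.99, adjusted p = 0.38), and 4 of 9968 genes were called in that fit (0.0401%), among them Lor (-8.51). DESeq2 called the difference of Id1 (2.06, adjusted p = 0.00689) along with 1.12% of genes. Without the filter edgeR called it for Id1 (1.90, adjusted p = 0.0432) and Bambi (-3.28, adjusted p = 0.0167), with 1.88% of genes called. The Id2 value rested on the E16.5 MOF cKO libraries, since it was -9.42 without replicate 1 and -0.90 without replicate 2, and it was -0.67 without cells of other classes.

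**Figure D3:**
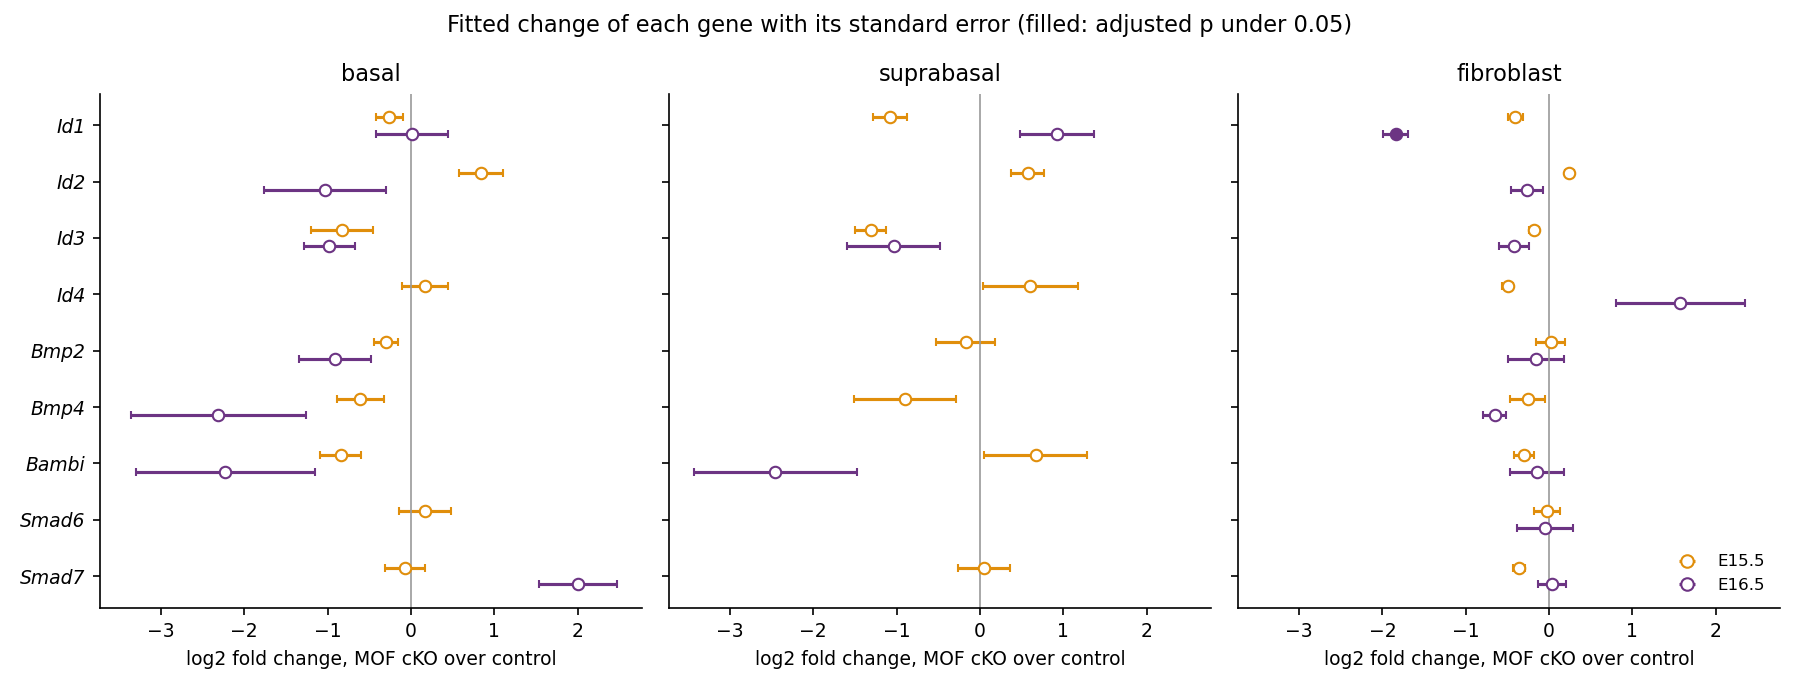
Fitted log2 fold change with its standard error for each gene (rows), MOF cKO over control (x axis), in 3 compartments at E15.5 (orange) and E16.5 (purple), from 2 against 2 libraries. Filled circles mark adjusted p under 0.05, reached by Id1 in E16.5 fibroblasts at -1.84, while Id3 is below 0 in every compartment and stage without passing the test.

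At E17.5, with 1 control and 1 QPC cKO library, differences have no replicate check and no test was made. Ratios are on the log2 scale with 1 CPM added. Intervals below are 95% exact intervals of the ratio without that addition, and they cover counting error only. In fibroblasts Id1 was 104 CPM in control and 224 CPM in QPC cKO, a log2 ratio of 1.11 (1.06 to 1.17), and it was the 1 member of 9 past 1.5-fold, where 9.47% of 12289 genes were. In suprabasal cells Id1 was 54.8 CPM against 117 CPM (1.09, 0.84 to 1.35), the 1 member past 1.5-fold of 2 with at least 100 UMIs, against 7.43% of 5911 genes. Hair follicle genes had at least 2 UMIs in 31.1% of control and 56.9% of QPC cKO suprabasal cells, and without those and the collagen-bearing cells Id1 was 58.2 and 135 CPM (1.19). The direction of Id1 was thus opposite in E17.5 QPC cKO fibroblasts and in E16.5 MOF cKO fibroblasts, and the comparison between these models was not tested. The dermal condensate markers summed to 578 CPM in control fibroblasts and 951 CPM in QPC cKO fibroblasts. Id2 (293 and 215 CPM), Id3 (446 and 394 CPM), Id4 (64.7 and 57.6 CPM), Bmp4 (75.1 and 84.4 CPM) and Bambi (28.7 and 19.8 CPM) differed by less than 1.5-fold in fibroblasts.

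Most E17.5 basal differences moved with the collagen-bearing cells of the gate. In all basal cells Bmp2 was 66.5 CPM in control and 125 CPM in QPC cKO (0.90), Id2 was 155 and 51.7 CPM (-1.57) and Bmp4 was 32.0 CPM in control and lower in QPC cKO (-1.04), so that 3 of 9 members were past 1.5-fold, as were 24.24% of 12851 genes. Without cells of at least 10 collagen UMIs, which left 1049 control and 916 QPC cKO cells, Bmp2 was 125 and 138 CPM (0.13, 0.06 to 0.21), Id2 was 40.9 and 33.4 CPM (-0.28, -0.43 to -0.15) and Bmp4 was 5.96 and 7.97 CPM (0.37, 0.09 to 0.75). In those cells Id4 was 14.4 CPM in control and 31.2 CPM in QPC cKO (1.07, 0.93 to 1.31) and Id1 was 41.8 and 65.0 CPM (0.63, 0.52 to 0.76), the 2 members of 8 past 1.5-fold beside 9.35% of 10713 genes. Id3 turned from 308 and 216 CPM (-0.51) in all basal cells to 151 and 188 CPM (0.31, 0.25 to 0.38) in those without collagen, and Bambi from -0.45 to 0.17 (-0.05 to 0.42). Hair follicle genes had at least 2 UMIs in 27.3% of control and 57.6% of QPC cKO basal cells, and with those cells and the collagen-bearing ones removed Smad7 was 36.3 and 19.8 CPM (-0.84), past 1.5-fold, while Id4 was 8.30 and 8.86 CPM (0.08) and Id1 was 35.9 and 43.1 CPM (0.26).

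**Figure D4:**
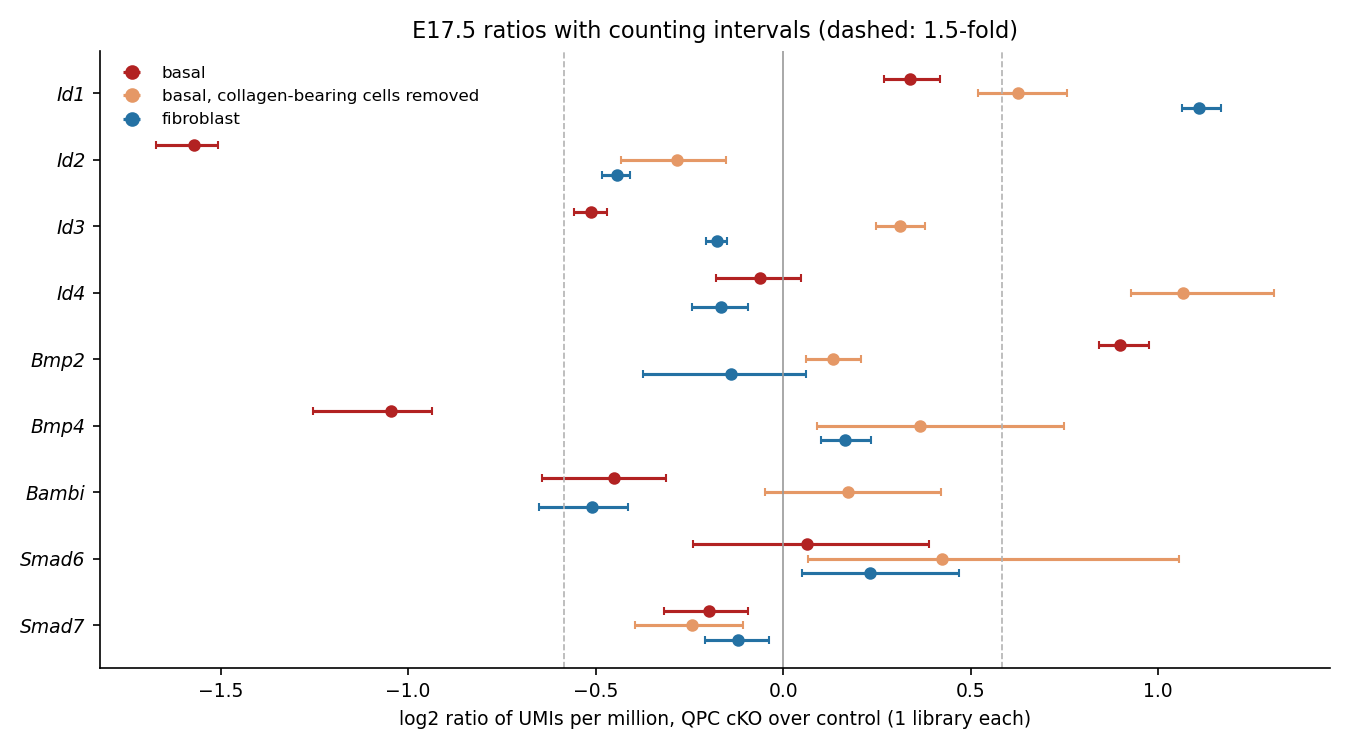
Log2 ratio of CPM, QPC cKO over control at E17.5 (x axis), with 95% counting intervals for each gene (rows) in basal cells, in basal cells without collagen-bearing cells and in fibroblasts, 1 library a group. Ratios have 1 CPM added and the intervals do not. Dashed lines mark 1.5-fold. Id2 in basal cells moves from -1.57 to -0.28 and Bmp4 from -1.04 to 0.37 when collagen-bearing cells are left out, and Id1 in fibroblasts lies at 1.11.

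Across the 30 sums of 10 libraries and 3 compartments, each centred on its stage, the profile most like that of Id1 among 2691 genes was Ammecr1 with a Pearson correlation of 0.652, followed by Tmbim6 (0.586), Erp44 (0.583), Ugp2 (0.578) and Tbcb (0.572). Id2 was most like Olfml3 (0.973), Dpysl2 (0.971), Fkbp10 (0.964), C1qtnf6 (0.963) and Islr (0.962), and Bmp4 was most like C1qtnf6 (0.945), Ebf1 (0.938), Tpst1 (0.933), Egfl6 (0.927) and Eln (0.925). Among members, Id2 with Smad6 (0.909), Id2 with Bmp4 (0.901) and Bmp4 with Smad6 (0.878) were the closest pairs, all higher in fibroblasts, and Id1 with Id3 was 0.0362. The points share libraries and compartments, so these values describe where genes were read and carry no test.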

How the data were processed

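Per the labels and the study's methods, embryonic back skin was dissociated and run on the 10x Genomics platform, and the authors aligned reads to mm10 with Cell Ranger (versions 1.3.1 and 6.1.2 in the submitters' processing notes). The authors deposited filtered matrices of raw UMI counts per gene and cell, 1 per library, without cell type labels.

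Cells with more than 1000 and fewer than 6000 genes and less than 10% mitochondrial UMIs were kept, and no doublet caller was run. Basal cells had at least 10 Krt5 and Krt14 UMIs and fewer than 10 Krt1 and Krt10 UMIs, suprabasal cells at least 20 Krt1 and Krt10 UMIs, and fibroblasts at least 30 Col1a1 and Col3a1 UMIs with fewer than 10 Krt5 and Krt14 UMIs. Free RNA and doublets can add UMIs of one class to another. UMIs were summed per library and compartment and tested with edgeR 4.0.16 (filterByExpr, TMM, quasi-likelihood test) in R 4.3.3, with Benjamini-Hochberg adjustment over all genes and a threshold of 0.05. The fits took each stage alone (2 against 2 libraries), both stages with stage as covariate, the difference between stages, and basal minus fibroblast with library as a block. The code of the 13 fits was run on simulated counts with known changes and the same spread for every gene. That setting is simpler than these data and does not give the power of the fits here. At E17.5, with 1 library a group, values are given with exact intervals that cover counting error only. Alternatives were DESeq2 1.42.0, library size alone, no low-count filter, a 5% mitochondrial limit, gate limits per 10000 UMIs, removal of cells with UMIs of other classes, a replicate block at E16.5, and leaving out each library. Removal of collagen-bearing cells at E17.5 was added after seeing the data. Motifs were searched in RefSeq promoters from 250 bases before to 50 after the start. That table held 5 of the 9 genes. The genes and lists were chosen with earlier results of these data known. Beside the 9 genes, the text names the list genes with the smallest adjusted p in each fit and list counts, and a few further genes were named after their values were seen. The paper states that controls were littermates and that E15.5 and E16.5 each had 2 pairs of samples. The labels do not say which libraries form a pair, and the main fits used no pairing. No source states that libraries of a group came from separate litters, so p-values measure the spread between these libraries.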

Additional observations from a re-analysis of the deposited data

Results flagged for a closer look

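The change of Id1 in fibroblasts between MOF cKO and control differed between stages, by -1.46 on the log2 scale at E16.5 relative to E15.5 (SE 0.18, adjusted p = 0.0327, edgeR's quasi-likelihood test over 14895 genes). It is listed because the effect of the same deletion was tested against itself at 2 stages and passed. The E15.5 libraries read 137 CPM in both controls and 93.8 and 117 CPM in MOF cKO, and the E16.5 libraries read 80.7 and 70.2 CPM and then 16.4 and 22.0 CPM. Stage and chemistry cannot be told apart, and the E15.5 MOF cKO replicate nearer to control was replicate 6, the embryo with mosaic deletion.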

How the results depend on the processing

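Counts of called members moved with the tool and the filter. The share of all genes called in the same setting is in parentheses. DESeq2 called 2 members in suprabasal cells (0.453%) and 4 in fibroblasts (3.04%) at E15.5, 1 each over both stages in basal (2.56%), suprabasal (1.95%) and fibroblast sums (10.69%), and 1 each for the stage difference in basal (1.55%) and suprabasal cells (1.12%). Without the low-count filter edgeR called 2 members in suprabasal cells (2.91%) and 2 in fibroblasts (0.954%) at E15.5, 1 in basal cells (5.95%) and 3 in fibroblasts (9.39%) at E16.5, 1 each over both stages in basal (2.27%) and suprabasal cells (3.3%), and 1 and 2 for the stage difference in those (2.12% and 1.88%). Gate limits per 10000 UMIs gave 3 of 5 in E16.5 basal cells (9.01%), and scaling by library size alone gave 2 in E16.5 fibroblasts (6.66%). At E17.5 basal cells had 1 of 9 members past 1.5-fold with gate limits per 10000 UMIs (6.99%), 1 of 7 without cells of other classes (10.29%), and 4 of 9 with a 5% mitochondrial limit (30.82%), which added Id3 at -0.69. Leaving out 1 library gave 0 to 3 members in basal (4.97% and 49.42% where any was called) and in suprabasal cells at E15.5 (0.337% and 15.49%), 0 to 1 in E15.5 fibroblasts (0.692%), 0 in basal and suprabasal and 0 to 2 in fibroblasts at E16.5 (1.03% to 2.75%), 0 in basal and suprabasal and 0 to 1 in fibroblasts over both stages (0.384%), 0 in basal and suprabasal and 0 to 2 in fibroblasts for the stage difference (0.226% and 5.28%), and 0 to 1 for basal minus fibroblast (9.08%). The direction turned for Id2 in the basal stage difference without cells of other classes (0.25) and for Bmp4 in E17.5 basal cells without collagen-bearing cells (0.37). It also turned for basal members under 1.5-fold at E17.5: Id3 (-0.51) stood at 0.31 without collagen-bearing cells, 0.15 with gate limits per 10000 UMIs and 0.04 without cells of other classes, Id4 (-0.06) at 1.07, 1.02 and 0.08, and Bambi (-0.45) at 0.17, 0.04 and -0.09. Smad7 (-0.20) stood at 0.09 with gate limits per 10000 UMIs, and Id4 at 0.04 with a 5% mitochondrial limit. In E17.5 fibroblasts Bmp4 turned from 0.17 to -0.27 without cells of other classes, and in suprabasal cells Id3 from 0.18 to -0.34 (-0.68 to -0.01) with the 5% limit. The cause of these changes was not tested.

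Over all genes, DESeq2 and the unfiltered fit called 295 and 991 genes in E16.5 basal cells and 950 and 1752 in E16.5 fibroblasts, against 23 and 583. For the stage difference in fibroblasts they called 963 and 510, against 188. Scaling by size alone moved the median change to -0.64 in basal, -0.58 in suprabasal and -0.11 in fibroblast sums at E16.5, with 346 fibroblast genes higher and 491 lower and 126 suprabasal genes higher and 179 lower, against 305 and 278 and against 143 and 29. Deviations of same-numbered E16.5 libraries from their group means had correlations of -0.0777 in basal, -0.0384 in suprabasal and -0.0215 in fibroblast sums. With 2 libraries a group these values cannot show whether the numbers pair the libraries. With a replicate block edgeR called 52 basal, 88 suprabasal and 576 fibroblast genes, among them Id1 in fibroblasts (-1.85, adjusted p = 0.0139).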

Other observations

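Bmp4 was also read in the cells that met none of the 3 gates, which hold immune, vascular, neural and other skin cells as well as keratinocytes and fibroblasts short of the limits. In these cells Bmp4 stood at 154 and 93.7 CPM in the E16.5 controls (276 and 409 UMIs) and at 7.34 and 13.7 CPM in MOF cKO (18 and 46 UMIs). At E15.5 it stood at 27.0 and 32.5 CPM in control and 10.7 and 19.3 CPM in MOF cKO, and at E17.5 at 35.0 CPM in control and 79.4 CPM in QPC cKO. The summed dermal condensate markers in the same cells were 288 to 432 CPM in E16.5 control and 88.9 to 106 CPM in MOF cKO, 268 to 306 against 164 to 231 CPM at E15.5, and 235 against 570 CPM at E17.5. No test was made in these cells, whose makeup differed between libraries: the 7 macrophage markers summed to 1885 to 3377 CPM in E16.5 control and 6305 to 7023 CPM in MOF cKO.

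Id1 in these cells was 58.8 and 66.2 CPM in E16.5 control and 31.0 and 30.3 CPM in MOF cKO, and 43.4 CPM in E17.5 control against 73.0 CPM in QPC cKO. Id2 overlapped between groups at E16.5, at 273 and 162 CPM in control and 392 and 211 CPM in MOF cKO.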
